A study of Mus musculus with 12 samples.

Results

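The regions described here are the m6A peaks that lie in internal exons of protein-coding transcripts, in a comparison of m6A between Mettl3-deficient and wild-type mouse liver. A peak was counted when it had a gene name and a transcript of the protein-coding class, and when its annotation named exon k of N with k above 1 and below N. These conditions held for 1386 of 17503 listed peaks with a gene name (7.92%), in 1134 of 10277 genes. They were split by width into 855 peaks of up to 1000 bp, in 728 genes, and 531 wider peaks, in 500 genes. The rule used no measured change. Width is the distance on the genome from the start to the end of a peak, so a wide peak can take in introns and can be wider than the RNA it marks.

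The study measured N6-methyladenosine (m6A) in liver of C57BL/6 mice with MeRIP-seq, in which an antibody against m6A enriches RNA fragments that carry the mark. It holds 12 libraries in 4 groups of 3 replicates each, namely Mettl3-deficient m6A-IP, Mettl3-deficient input, wild-type m6A-IP and wild-type input. All share the strain and the tissue, and the title places them in postnatal life. The sources used here do not state the allele, the cells in which Mettl3 was lost or the age of the mice. In bulk tissue, fewer cells of a type and less RNA per cell cannot be told apart.

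The methyltransferase complex built around METTL3 and METTL14 places m6A on nascent mRNA at short sequence motifs. The mark is known to gather near stop codons, in 3′ UTRs and in unusually long internal exons. Exon junction complexes, which the splicing machinery leaves beside each junction, are known to keep the methyltransferase off nearby RNA, so that short internal exons carry little m6A.

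Values came from the authors' deposited table, which gives 1 log2 fold change and 1 log10 of the false discovery rate (FDR) for each peak. There were no values per library, so no spread between mice and no depth could be given, and every share below describes peaks of this table. A peak is named called when its deposited FDR is 0.05 or below. Whether that FDR takes in the spread between mice is not stated. The header does not name the numerator of the fold change. From the design alone, negative values likely stand for lower enrichment in Mettl3-deficient liver, and changes are called negative or positive throughout. Shares carry 95% Wilson intervals. These hold only the counting error, and peaks of 1 gene are not independent. Of the marker genes listed for liver cells, 6 of 7 for hepatocytes had a listed peak, among them Alb, Ttr and Apob, as did 5 of 5 for stellate cells and matrix, 4 of 6 for endothelium, 2 of 5 for macrophages and 2 of 5 for cholangiocytes. Peaks were thus listed for several cell types of the tissue.

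The label of an internal exon rests on the authors' annotation. For 1254 of the 1386 peaks the named exon belonged to the transcript listed for the peak, for 132 it belonged to another transcript, and for 45 it belonged to another gene. RefSeq for GRCm38.p6, the build of mm10, knew the names of all 1134 genes as symbols or synonyms, and 1373 peaks overlapped that gene's span in RefSeq. The median peak lay in exon 5 of a transcript of 13 exons. In 26 cases a peak overlapped another peak of the set, and merging these left 1373 separate regions. Exon borders were not used here, so it was not checked that each peak of up to 1000 bp lies within its exon.

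Internal-exon peaks of up to 1000 bp were mostly negative. Of the 855 peaks, 586 were called (68.5%), against 70.8% of all listed peaks of that width and 76.2% of all listed peaks. Of these, 417 were negative and 169 positive, which puts the negative share at 71.2% (67.4 to 74.7), against 53.0% of the called peaks of that width in the whole table (52.0 to 54.1). Counted over all peaks, 48.8% were negative and called and 19.8% positive and called. The corresponding shares were 37.6% and 33.3% of all listed peaks of that width, and 40.6% and 35.6% of all listed peaks. The median log2 fold change was -0.90, against 0.39 for all listed peaks of that width and 0.34 for all listed peaks. Taken relative to that overall median, the value was -1.24.

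The negative changes were larger than the positive ones, as in the whole table. Called negative peaks of up to 1000 bp had a median log2 fold change of -1.42, equal to a ratio of 0.374, with quartiles of -1.96 and -1.01. For called positive peaks the median was 0.69, equal to a ratio of 1.61, with quartiles of 0.54 and 0.98. Log2 fold changes of 1 or more in size were found for 319 of the 417 negative peaks (76.5%), and for 41 of the 169 positive ones (24.3%). Over all listed peaks of up to 1000 bp the medians were -1.38 and 0.75, and these shares 73.1% and 24.3%. With that limit on size, 88.6% of 360 called peaks were negative. Values close to 0 were rare, with 3 of the 855 peaks within 0.25 of it.

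Peaks wider than 1000 bp were evenly divided between the signs. Of 531 such peaks 383 were called (72.1%), against 87.0% of all listed peaks above 1000 bp. There were 192 negative and 191 positive peaks among them, a negative share of 50.1% (45.1 to 55.1), against 53.6% for the called peaks above 1000 bp in the whole table (52.2 to 55.0). The median log2 fold change was 0.38, or 0.04 once the overall median was subtracted. Negative called peaks had a median of -1.26 and positive ones a median of 0.63.

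Negative shares were higher at the strongest evidence than at the weakest, in both width classes. Among called peaks of up to 1000 bp with a log10 FDR below -50, 80.3% of 61 were negative, against 62.5% of 277 for those with a log10 FDR above -5. The highest share in that width class, 83.7% of 141, was found between -50 and -10. Among wide peaks the shares below -50 and above -5 were 86.7% of 45 and 37.1% of 178. Negative changes were also larger than positive ones, and shares by level of evidence were not computed for the whole table. The even division of wide peaks thus held for the class as a whole and not at each level of evidence.

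The negative share was highest at middle widths and lower in each wider class. Of 172 called peaks above 300 and up to 500 bp, 77.3% were negative (70.5 to 82.9), and of 178 above 500 and up to 1000 bp, 74.7% (67.9 to 80.5). The share was 64.8% of 122 up to 2000 bp, 48.5% of 136 up to 5000 bp, 42.4% of 66 up to 10000 bp and 32.2% of 59 above 10000 bp (21.7 to 44.9). Short peaks were called less often: 38.4% of the 99 peaks of up to 100 bp passed the threshold, against 83.9% of those above 300 and up to 500 bp. The widest peaks inside the split, given next, had positive values, and the narrowest ones above it had both signs. The authors' deposited table gives 0.28 for a 998 bp peak of Clpb, a mitochondrial chaperone gene, and 0.31 for a 992 bp peak of the RNA helicase gene Ddx54, and 2.17 for a 992 bp peak of the elongation factor gene Eef1a2 that was not called. Just above the split, the authors' deposited table gives 0.84 for a 1005 bp peak of Ctsh, which encodes a lysosomal protease, -0.41 for a 1012 bp peak of Spp1, which encodes osteopontin, and -1.63 (log10 FDR -55.8) for a 1014 bp peak of Sh3bp5l.

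**Figure D1:**
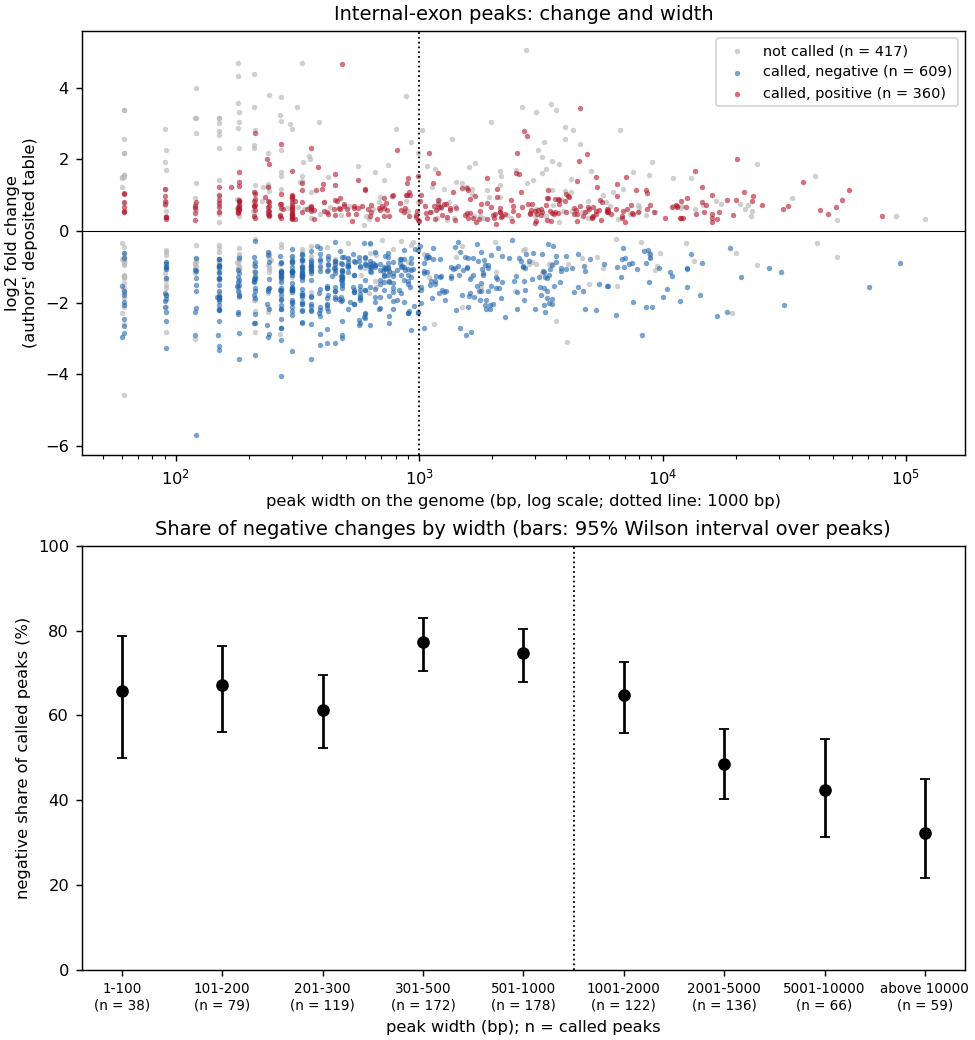
Top, log2 fold change from the authors' deposited table (vertical axis) against peak width in bp (log axis) for the 1386 internal-exon peaks, with 609 called negative, 360 called positive and 417 peaks that were not called. Bottom, the negative share of called peaks in % for each width class with 95% Wilson intervals. Shares stay above 60% up to 2000 bp and reach 32.2% above 10000 bp.

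Set beside peaks at other places of protein-coding transcripts, internal-exon peaks of up to 1000 bp lay below last exons and above both UTRs. The negative share of 71.2% compares with 90.9% of 307 called last-exon peaks (87.1 to 93.6), 72.1% of 68 first-exon peaks (60.4 to 81.3), 56.6% of 4911 peaks in the 3′ UTR (55.3 to 58.0) and 25.8% of 1003 in the 5′ UTR (23.2 to 28.6), all of up to 1000 bp. Above 1000 bp the order differed. The share in internal exons was 50.1%, whereas that in the 3′ UTR was 72.4% of 1939 (70.3 to 74.3) and that in the 5′ UTR 36.3% of 1563 (34.0 to 38.8). For last exons it was 84.8% of 33 (69.1 to 93.3) and for first exons 76.0% of 25 (56.6 to 88.5), with few peaks in each. The wider peaks thus had a lower share than the narrower ones in internal and last exons, and a higher one in first exons and both UTRs, with intervals that overlap for last and first exons. Medians over all peaks of up to 1000 bp were -0.90 in internal exons, -1.44 in last exons, 0.21 in the 3′ UTR and 0.73 in the 5′ UTR. These differences between classes were not tested, because peaks are not replicates of a condition.

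**Figure D2:**
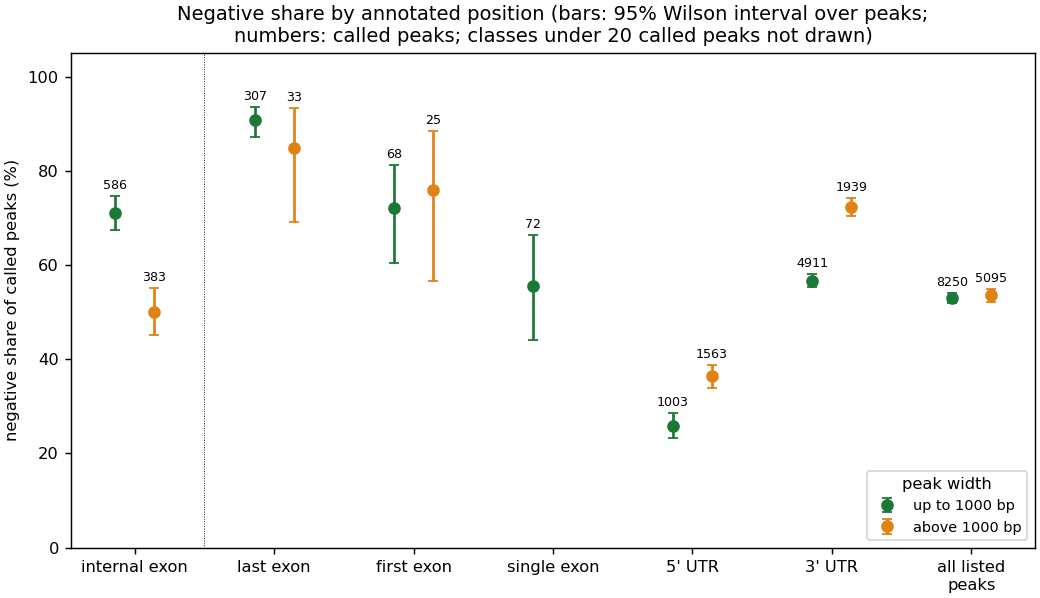
Negative share of called peaks in % (vertical axis) by annotated position on protein-coding transcripts and for all listed peaks, with 95% Wilson intervals and the number of called peaks above each point. Green points are peaks of up to 1000 bp and orange points wider ones. Internal exons stand at 71.2% and 50.1%, and the 3′ UTR at 56.6% and 72.4%.

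The place of the exon in the transcript went with the sign, most clearly in wide peaks. With 1 exon left after the peak's exon, 83.3% of 84 called peaks of up to 1000 bp were negative, and with 2 left 78.7% of 75. Further from the end the share lay between 66.3% and 74.2%. Among wide peaks it was 82.5% of 57 with 1 exon left (70.6 to 90.2) and 77.1% of 35 with 2 left, then 54.3% of 94 with 3 to 5 left, 34.7% of 118 with 6 to 10 left (26.8 to 43.7), 36.8% of 57 with 11 to 20 left and 22.7% of 22 with more than 20 left. The number of exons in the whole transcript, which is tied to the number left, went with the sign of wide peaks too: 80.6% of 31 were negative with 3 or 4 exons, 63.4% of 82 with 5 to 8, 44.3% of 70 with 9 to 12, 39.6% with 13 to 20, 43.0% of 79 with 21 to 40 and 10 of 20 with more. The exons left and the total were not separated. The pattern did not follow width alone. Of called peaks above 2000 bp, 79.6% of 49 with 1 or 2 exons left were negative, against 34.9% of 212 with more exons left. For peaks above 1000 and up to 2000 bp the corresponding shares were 81.4% of 43 and 55.7% of 79. Wide peaks near the end of a transcript may reach into its last exon, and this was not tested.

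Distance from the start of the transcript went with the sign of the narrower peaks. The distance is the authors' and runs on the genome, introns included, from the start of the listed transcript. Of called peaks of up to 1000 bp within 2 kb of that start, 32.8% of 58 were negative (22.1 to 45.6). The share was 66.2% of 151 at 2 to 10 kb, 78.4% of 241 at 10 to 50 kb and 84.3% of 121 beyond 50 kb (76.8 to 89.7). Peaks that covered a transcript start were few, with 7 of 15 called ones negative. By exon number alone, peaks in exon 2 were negative in 70.8% of 137 and those in exons 11 to 20 in 76.6% of 94. Within exons 2 and 3, 31.5% of 54 called peaks were negative up to 2 kb from the start, 77.3% of 88 at 2 to 10 kb (67.5 to 84.8) and 85.2% of 81 beyond 10 kb. In exon 4 or later, 50.8% of 63 were negative at 2 to 10 kb (38.8 to 62.7) and 79.0% of 281 beyond 10 kb, with 4 called peaks nearer to the start. At 2 to 10 kb the share thus differed with the exon. Beyond 10 kb the intervals overlapped, at 75.9 to 91.3 for exons 2 and 3 and 73.9 to 83.4 for later exons. In wide peaks the share was 31.2% of 32 within 2 kb and 41 of 82 at 2 to 10 kb, 50.9% of 161 at 10 to 50 kb and 55.0% of 80 beyond 50 kb.

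**Figure D3:**
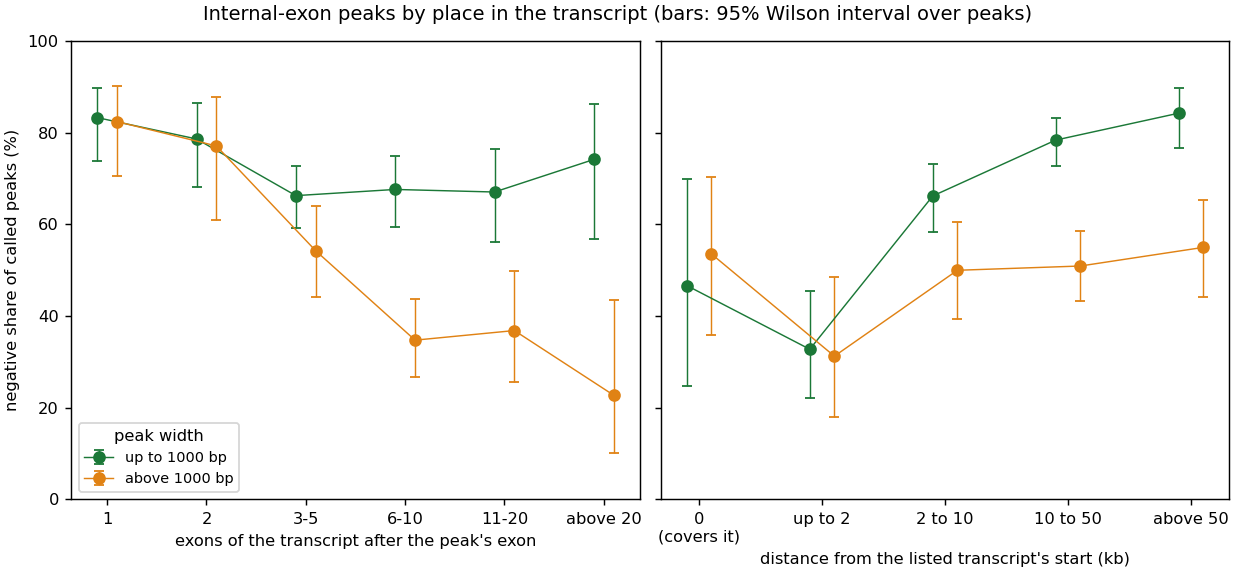
Negative share of called internal-exon peaks in % (vertical axes) by the number of exons that follow the peak's exon (left) and by distance in kb from the start of the listed transcript (right), with 95% Wilson intervals. Green points are peaks of up to 1000 bp and orange points wider ones. Wide peaks go down to 22.7% with more than 20 exons left, and narrow peaks reach 84.3% beyond 50 kb.

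Internal exons that held more than 1 called peak had only negative called peaks in this table. After merging overlapping peaks, 45 internal exons in 45 genes held 2 or more called peaks, 97 peaks in all, and each of the 97 was negative. Their median log2 fold change was -1.26, and they ran from -3.12 to -0.69. Another 5 peaks in these exons were not called, and all 5 had negative values. Of the 865 internal exons with a single called peak, 506 (58.5%) were negative and 359 positive. The groups differ in width, since 81 of the 97 peaks were of up to 1000 bp, against 499 of the 865, and the part of width in this difference was not tested. Last exons showed 36 of 37 with several called peaks all negative and 1 all positive, and 222 of 252 with a single called peak negative (88.1%). From the first to the last called peak such internal exons spanned a median of 1588 bp, and 38 of the 45 spans exceeded 1000 bp, though a span that includes a wide peak can take in introns. Within an exon the gap between the highest and the lowest called value had a median of 0.38 and reached 1.21. Gaps between peaks of different exons were not computed for comparison.

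The clearest case was Apob, which encodes apolipoprotein B, the scaffold of very low density lipoprotein. All 4 of its internal-exon peaks lay in exon 26 of 29, between 8006033 and 8012835 on chromosome 12 (mm10), and covered 84.6% of that stretch of 6803 bp. The RefSeq span of the gene runs from 7977629 to 8016839. In order along the genome, the authors' deposited table gives log2 fold changes of -1.78, -2.18, -2.05 and -2.05 for peaks of 1500, 1889, 1948 and 420 bp. Their log10 FDR values in the authors' deposited table were -136, -320, -434 and -434, the last being the lowest value that the table holds. All 4 peaks of the stretch were thus negative, with a ratio of 0.241 for its last 2.

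Other genes with 3 called peaks in 1 exon included a further plasma protein. F5 encodes coagulation factor V, and exon 13 of 25 held peaks at -2.04, -1.13 and -1.21 in the authors' deposited table, between 164191930 and 164194386 on chromosome 1. For Ahdc1, a gene for an AT-hook protein, the authors' deposited table gives -2.20, -1.50 and -2.06 in exon 6 of 7. Sec16a, whose protein organises exit sites of the endoplasmic reticulum, had -1.25, -1.71 and -0.79 in exon 2 of 31 (authors' deposited table). Nsd1, a histone H3 methyltransferase gene, had -1.08, -0.97 and -1.32 in exon 3 of 21, and Rusc2 had -0.93, -0.90 and -0.99 in exon 2 of 12 (authors' deposited table). Sec16a, Nsd1 and Rusc2 were picked with their values in view.

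**Figure D4:**
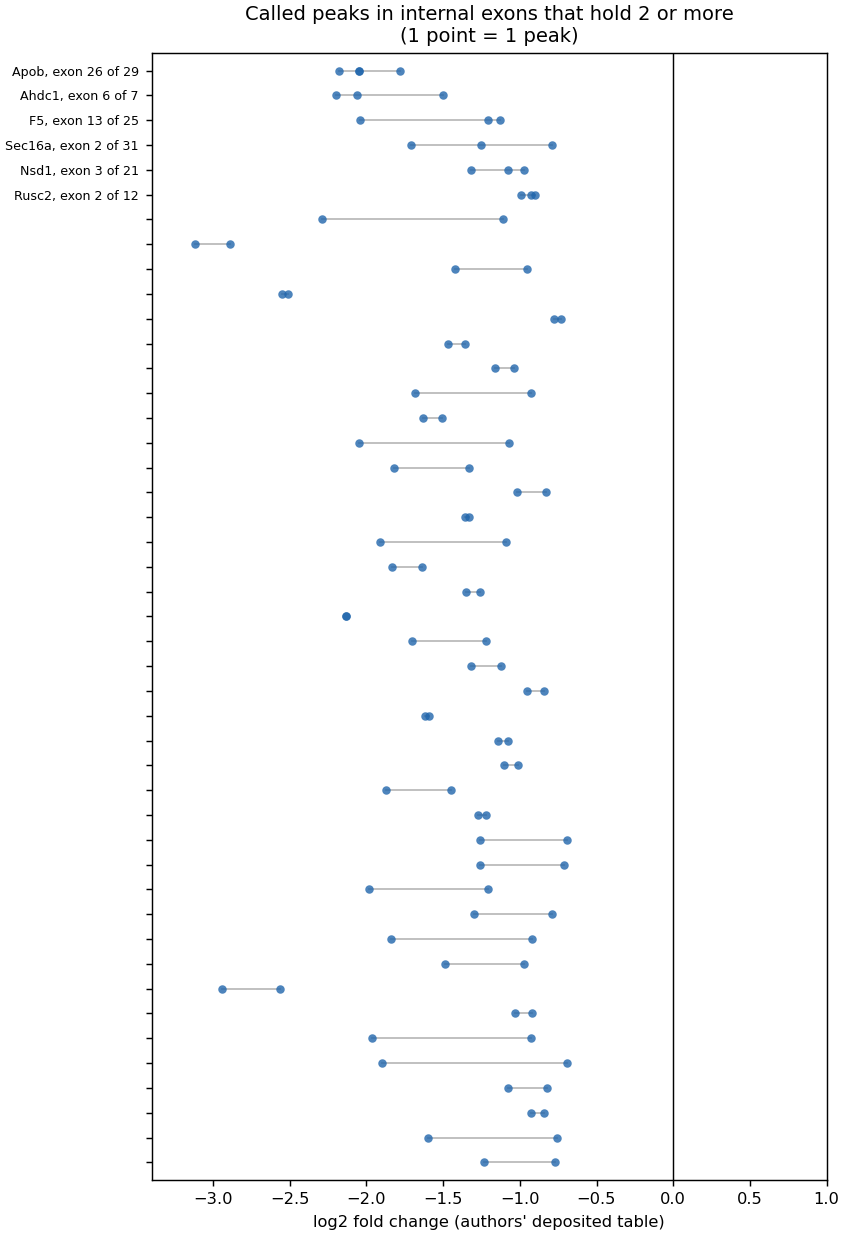
Log2 fold change from the authors' deposited table (horizontal axis) of each called peak in the 45 internal exons that hold 2 or more, 1 row per exon and 1 point per peak, with a grey line joining the peaks of an exon. Names are given for the 6 exons with 3 or more called peaks. All 97 points lie left of 0, between -3.12 and -0.69.

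When the called peaks of a gene lay in different exons, both signs were common across genes, and most genes held 1 sign. Of 75 genes with called peaks in 2 or more internal exons, 31 were negative in all of them, 29 positive in all and 15 held both signs, counting the peak of lowest FDR in each exon. Kmt2d, a gene for a histone H3 methyltransferase of enhancers, had the most internal-exon peaks, 7 in 6 exons. In the authors' deposited table the called ones stood at -1.11 in exon 48 of 55, -1.26 and -1.35 in exon 40, -1.01 in exon 35, 1.44 in exon 21 and -1.12 in exon 11. The positive one covers the start of a transcript in the annotation, and the peak that was not called, in exon 12, stood at -1.28 in the authors' deposited table. Setd1a, another H3 methyltransferase gene, had 5 peaks with negative values, 4 of them called, but 4 of the 5 overlap another: the peaks at -1.68 and -1.68 in exon 14 of 19 are shifted copies of 1 region in the authors' deposited table. Dicer1, which encodes the nuclease of microRNA processing, had -2.15 in exon 21 and -1.59 in exon 23 of 27, and 1.14 at a peak of 8585 bp in exon 9 (authors' deposited table). Dicer1 was picked with its values in view. Like Setd1a, the genes 2900026A02Rik, Dst and Mprip had 5 internal-exon peaks, with 3 called in each of them. The called ones were all negative in 2900026A02Rik, 2 negative and 1 positive in Dst, and all positive in Mprip.

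The largest negative changes among peaks of up to 1000 bp were found in genes of varied function. The authors' deposited table gives -5.70 for Hdc, the histidine decarboxylase of histamine synthesis, -4.05 for the monocarboxylate carrier gene Slc16a12 and -3.58 for the transcription factor gene Sp4. It gives -3.58 for Zfp644, a zinc finger gene, -3.46 for the Wnt receptor gene Fzd6, -3.34 for the acid sphingomyelinase gene Smpd1 and -3.32 for Btbd8 (authors' deposited table). The others were Cyp1a1, a cytochrome P450 of xenobiotic metabolism, at -3.27, Clp1, a factor of mRNA 3′ end formation, at -3.20 and the phosphatase subunit gene Ppp2r3a at -3.17 (authors' deposited table). Evidence differed widely among them. The log10 FDR was -434 for Smpd1, -79.1 for Clp1 and -41.5 for Slc16a12 in the authors' deposited table, but -1.81 for Hdc, -1.85 for Sp4, -1.33 for Zfp644 and -2.63 for Btbd8.

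Most of the largest positive changes had weak evidence. In 7 of the 10 the log10 FDR was above -3. The authors' deposited table gives 4.67 for Blk, a kinase gene of B cells, 2.75 for the microtubule gene Mtcl1 and 2.42 for the interferon-inducible gene Ifi206. Further down were the centrosomal gene Ninl at 2.25 and the macrophage scavenger receptor gene Msr1 at 1.88 (authors' deposited table). The 3 with stronger evidence were Gstm6 (2.02, log10 FDR -128), Il11ra1 (1.80, log10 FDR below -10) and the ribosomal protein gene Rpl35a (1.65, log10 FDR -38.9) in the authors' deposited table. Gstm6, Il11ra1 and Ifi206 have close relatives of similar sequence, and their reads may be split between copies. Other named genes, here and below, were not checked for such relatives.

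Ranked by evidence instead of size, the positive peaks of up to 1000 bp again included Gstm6. The others named here were chosen after their values were seen. H2-Q10, a class I histocompatibility gene of liver, stood at 0.60 in exon 2 (log10 FDR -248) and 0.76 in exon 3 (log10 FDR -87.0) in the authors' deposited table. Ndrg2 stood at 1.15 (log10 FDR -230), and the ribosomal protein genes Rpl28 and Rps25 at 0.56 and 0.70 in the authors' deposited table. Atp5g3, a subunit gene of the mitochondrial ATP synthase, stood at 0.77 and the aldehyde dehydrogenase gene Aldh2 at 0.47 (authors' deposited table). The peaks of H2-Q10, Atp5g3 and Rps25 lie within 2 kb of a transcript start, and that of Rpl28 covers one. On the negative side, 12 of the 855 peaks of up to 1000 bp were at the lowest FDR of the table, none of them positive. So were 223 of all 11646 listed peaks of that width, whose signs are not given here. The 12 include Cog8 (-3.13), Gprc5c (-2.88), Tpst2 (-2.61), Coasy (-2.54), Klf15 (-2.08), Cpt2 (-2.04) and Agt (-2.03) in the authors' deposited table. Among these, Cog8 encodes a Golgi tethering subunit, Coasy the enzyme that completes coenzyme A, Klf15 a transcription factor of fasting metabolism, Cpt2 an enzyme of mitochondrial fatty acid oxidation and Agt angiotensinogen.

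Among wide peaks the evidence also differed between the extremes. The 5 most negative were Glce (-2.89), Nceh1 (-2.89), Ptprf (-2.82), Ythdf1 (-2.71) and Pramef8 (-2.71) in the authors' deposited table, and 4 of them had a log10 FDR below -10. Glce encodes an epimerase of heparan sulfate, Nceh1 a cholesterol ester hydrolase and Ptprf a receptor tyrosine phosphatase. The 5 most positive were Gm10639 (3.43), Dnah1 (2.80), Sh3pxd2b (2.65), Kmt2a (2.19) and Afap1 (2.17), each with a log10 FDR above -3 in the authors' deposited table. Dnah1 encodes an axonemal dynein, and Kmt2a an H3 methyltransferase.

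Chromatin genes held 3.39% of the internal-exon peaks, and most of the called ones were negative. Of the 52 chromatin modifiers and remodellers listed, 50 had a peak anywhere and 28 held 47 internal-exon peaks. Of these 47, 32 were negative and called, 4 positive and called and 11 not called, with a median of -1.04, against -0.71 over all internal-exon peaks. The called share was 76.6% and the negative share of called peaks 88.9%, against 69.9% and 62.8% over all internal-exon peaks and 76.2% and 53.3% over all listed peaks. Of the 32 negative called peaks, Kmt2d held 5, Setd1a 4, Ncoa6 3 and Nsd1 3. The shifted copies of 1 Setd1a region were each counted. These shares thus count peaks and not independent genes, and the difference was not tested. Among the 31 of up to 1000 bp, 22 were negative and 1 positive. The lowest FDR values belonged to the H3 methyltransferase gene Kmt2b (-1.98, log10 FDR -73.4), the nuclear receptor coactivator gene Ncoa6 (-1.16, log10 FDR -34.1) and the Setd1a and Kmt2d peaks given above (authors' deposited table). Further peaks of Ncoa6 stood at -2.29 in exon 8 and -1.04 in exon 10 of 14 (authors' deposited table). Positive called values were those of Brd3 (0.66) and Smarca4 (0.45), with Kmt2a and 1 peak of Kmt2d as above, in the authors' deposited table. Brd3 encodes a reader of acetylated histones and Smarca4 the ATPase of a nucleosome remodeller.

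Most called peaks of genes listed for a very long internal exon were negative too. Of 30 such genes 27 had a listed peak and 18 held 36 internal-exon peaks, of which 19 were negative and called, 4 positive and called and 13 not called, with a median of -1.07. The called share was 63.9% and the negative share of called peaks 82.6%, against 69.9% and 62.8% over all internal-exon peaks. Kmt2d held 5 of the 19 negative called peaks, Apob 4 and Nsd1 3. Peaks were counted in any internal exon of these genes, and exon lengths were not computed. Kmt2a, Kmt2d, Nsd1 and Setd2 stand in this list and in that of chromatin genes, with 12 peaks counted in both. Besides Apob, Kmt2d and Nsd1, the authors' deposited table gives -1.76 (log10 FDR -4.48) for the homeobox gene Zfhx3 and -2.58 (log10 FDR -1.45) for Zfhx4. Macf1, a cytoskeletal linker gene of 98 exons, went both ways, at -0.82 in exon 57 and 0.95 in exon 62 (authors' deposited table). Zfhx4 and Macf1 were picked with their values in view.

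The other lists had few internal-exon peaks. In the m6A machinery, 2 of 21 genes held 3 such peaks, all negative and called: Ythdf1, a cytoplasmic m6A reader, at -2.71 in exon 4 of 5, and Virma, a scaffold of the methyltransferase complex, at -1.49 in exon 9 and -0.94 in exon 8 of 13 (authors' deposited table). Of 20 hepatocyte transcription factor genes, 2 held 1 peak each, namely Prox1 at -1.89 in exon 2 of 5 and Nr5a2 at -1.39 in exon 5 of 9 (authors' deposited table). Of 26 plasma protein genes, Apob and Itih1 alone held any, and that of Itih1, which encodes a chain of a serum protease inhibitor, was positive at 0.96 and 441 bp from a transcript start (authors' deposited table). With so few peaks these 3 lists give values and no share.

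Within genes, an internal-exon peak of up to 1000 bp mostly had the sign of the leading 3′ UTR peak, leading meaning the lowest FDR. Both were called in 309 genes. The 2 were negative in 167 genes and positive in 52, the internal-exon peak alone was negative in 51 and the 3′ UTR peak alone in 39. Medians in these genes were -1.12 for the internal-exon peaks and -0.99 for the 3′ UTR peaks. With both kinds mostly negative, many signs would be shared by unrelated peaks too. That base was not computed, and a link between the 2 signs was not tested. The median difference, internal exon minus 3′ UTR, was -0.05 (quartiles -0.83 and 0.42). These 3′ UTR peaks were of any width. With 3′ UTR peaks of up to 1000 bp alone, 236 genes gave 117, 38, 54 and 27 in the same order, with a median difference of -0.19. For wide internal-exon peaks, 205 genes gave 92, 52, 14 and 47 in the same order, with a median difference of 0.21. Against the leading 5′ UTR peak, 110 genes had 43 with both negative, 43 with both positive, 20 with the narrow internal-exon peak alone negative and 4 with the 5′ UTR peak alone negative. The median difference, internal exon minus 5′ UTR, was -0.36.

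Among the 5 genes with the largest gap to the 3′ UTR were Ahdc1, Smpd3, Cog8 and Ahr. In Ahdc1 the authors' deposited table gives -2.20 in exon 6 and 3.78 (log10 FDR -2.06) in the 3′ UTR. Smpd3, a neutral sphingomyelinase gene, had -1.85 in exon 3 of 9 and 2.09 in the 3′ UTR, and Cog8 had -3.13 in exon 3 of 5 and 0.43 in the 3′ UTR (authors' deposited table). That 3′ UTR peak of Cog8 ends at 107046528 on chromosome 8, outside the RefSeq span of Cog8, which starts at 107048709. Ahr encodes the receptor for dioxin and other ligands, and had -2.25 in exon 10 of 11 (log10 FDR -43.8) and 1.28 (log10 FDR -5.30) in its 3′ UTR (authors' deposited table). By the authors' annotation, these 4 genes thus paired a negative internal exon with a positive 3′ UTR. For Cog8 the RefSeq span does not bear this out.

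**Figure D5:**
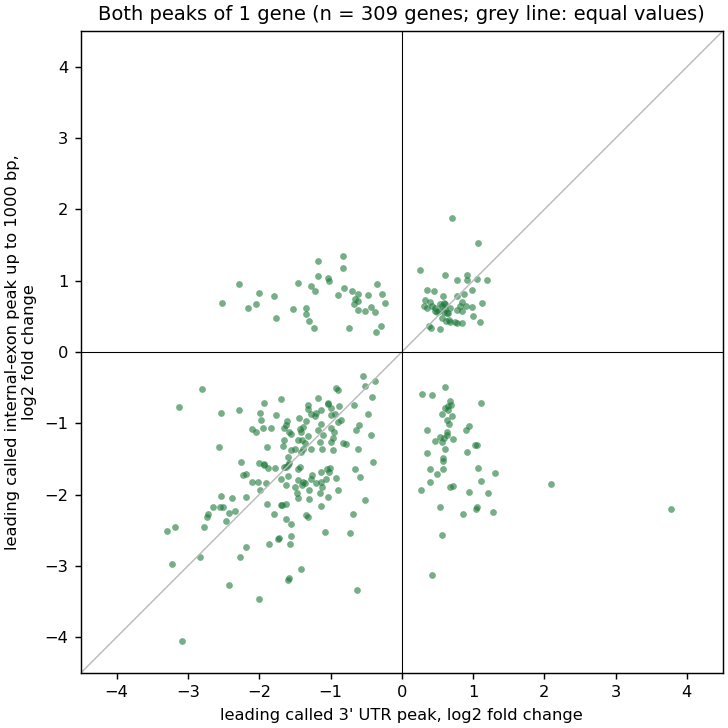
Log2 fold change of the leading called internal-exon peak of up to 1000 bp (vertical axis) against that of the leading called 3′ UTR peak (horizontal axis) for 309 genes, from the authors' deposited table. Each point is 1 gene and the grey line marks equal values. Both values are negative in 167 genes and positive in 52.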

How the data were processed

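The series holds 12 libraries, and its values came from 1 deposited table of the authors' comparison between the genotypes, with no values per library. The submitters' processing notes name HISAT2 2.1.0 and the mm10 build. How peaks were called, filtered and compared, and how replicates entered, is not given in the sources used here. Each peak has, per the file headers, a log2 fold change and a log10 FDR from the authors, both treated here as a score, since 189 of 17692 rows lack a gene name and hold these values in other columns. Those rows were left out. The deposited p-values, rounded to 2 decimals, were not used. The lowest log10 FDR is -434 and the next lowest -321.

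Counts, medians and shares were computed from the deposited values, with Python 3.11.15, pandas 2.3.3 and statsmodels 0.14.6. Without values per library the planned edgeR fit was not run, and without a genome the planned motif search and exon lengths were not done, so no peak sequence is printed. Counting was tested on simulated data. The members, the 5 gene lists and the tests were chosen with earlier results of these data known. Named genes were the 10 most negative and 10 most positive called peaks of up to 1000 bp, the 5 of each sign above it, the 5 genes with the most called internal-exon peaks, the 5 with the largest gap to the 3′ UTR, and up to 4 of each list by FDR. The plan had taken the 5 genes with the most internal-exon peaks, called or not. Counts of exons with several peaks and of exon number by distance were added after the data were seen. Alternatives were the FDR, size and width limits, centring, 1 peak per gene, inner exons, RefSeq overlap and 3 added later. Some genes that the rule names are not reported here.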

Additional observations from a re-analysis of the deposited data

How the results depend on the processing

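For peaks of up to 1000 bp, the negative share of called peaks was 71.2% and stayed inside its interval, between 69.1% and 72.5%, under 10 of 11 alternatives. It was 88.6% of 360 peaks when changes under 1 in size on the log2 scale were left out. The number of called peaks was 586, and 382 when exon 2 and the exon before the last were left out. For wider peaks the share of 50.1% was 78.4% of 167 peaks with the limit on size, 57.9% with the width split at 500 bp, 43.3% with the split at 2000 bp and 43.0% without exon 2 and the exon before the last. The median of the wider peaks changed sign, to -0.34, with the split at 500 bp, which moves peaks above 500 and up to 1000 bp into that class. Merging overlapping peaks, keeping exons of the listed transcript and leaving out peaks that cover a transcript start, all added after the data were seen, moved neither share out of its interval. No paired analysis was possible because the table holds no values per library, and for the same reason no replicate could be left out. Depth and signal over background are unknown, so a peak that was not called is not shown to be unchanged.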

Other observations

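The X chromosome held 31 internal-exon peaks. Among its 19 called ones, 8 were negative, or 42.1% (23.1 to 63.7). The autosomes had 601 negative of 950 called, or 63.3% (60.1 to 66.3). This difference was not tested.

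The widest called peaks took in long stretches of a gene. The authors' deposited table gives -0.88 for a peak of 94733 bp in Adcy9, an adenylate cyclase gene, 0.41 for one of 79487 bp in Khdrbs3, -1.55 for one of 70329 bp in the kinase gene Hipk2 and 1.16 for one of 58369 bp in Necab1. These 4 were chosen after their values were seen.

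Some genes had no listed peak outside their internal exons by this rule. Of the 1134 genes with such a peak, 322 had no listed peak of another class, and 812 had at least 1.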
